A study of Mus musculus with 4 samples.

Results

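The 9 genes described here are 8 amino acid transporter subunits (Slc7a5, Slc3a2, Slc1a5, Slc38a1, Slc38a2, Slc7a1, Slc7a6 and Slc7a11) and the glutaminase gene Gls2. They were chosen by symbol, and all 9 matched 1 gene each among the 50600 genes of the count tables. RNA came from primary mouse T-helper 17 (Th17) cells, CD4 T cells that make interleukin-17, of strain C57BL/6NJ, obtained with a protocol for differentiating CD4 T cells. There were 4 libraries in 1 group, named by the replicate numbers 1 to 4 of the labels, with no genetic change, no treatment contrast and no second condition. The labels record neither the sex nor the age of the mice. They give each library its own biosample but the same donor identifier. Comparisons are therefore between genes within a library and between libraries.

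Activated T cells grow quickly and import amino acids through solute carriers of the cell membrane. Leucine and other large neutral amino acids enter through a dimer of a light chain, such as Slc7a5, and the heavy chain Slc3a2, which carries the light chain to the membrane. Glutamine enters through Slc1a5 and the Slc38 carriers, arginine through Slc7a1, and cystine through Slc7a11. Glutaminases then turn glutamine into glutamate inside mitochondria. In mouse T cells, Slc7a5 is known to be needed for clonal growth, and Slc1a5 for Th17 development.

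Libraries held between 24696730 and 37025016 fragments counted in genes. Of 7 Th17 genes, 4 reached 100 TPM in every library, among them Rora, Il17f and Il21. Lower were Il17a at 20.0 ± 1.02 TPM, Ccr6 at 14.3 ± 1.97 TPM and Il23r at 2.14 ± 0.154 TPM. The T-cell genes Cd3e, Cd3d, Cd4, Trac and Lck reached 100 TPM in every library too. The summed level of 4 B-cell markers was 0.280 to 0.893 TPM, that of 4 myeloid markers 0.0272 to 0.0745 TPM, and both erythroid markers had no fragment. The sum of 4 markers of CD8 T and NK cells was 6.00 to 8.74 TPM. Cd8b1 was at 7.32 ± 1.16 TPM, Cd8a at 0.102 ± 0.0523 TPM and Gzma at 0.0261 ± 0.0522 TPM, and Ncr1 had no fragment. The sum of 5 markers of other helper cells was 16.6 to 21.3 TPM. Foxp3 was at 9.92 ± 1.47 TPM and Tbx21 at 6.65 ± 0.881 TPM. Gata3 was at 1.54 ± 0.128 TPM, Il4 at 0.114 ± 0.0724 TPM and Ifng at 0.0354 ± 0.0708 TPM. The part of other cells in the levels below was not tested. Xist was at 186, 161, 0.687 and 0.721 TPM and Ddx3y at 0.442, 0.446, 88.6 and 83.2 TPM in replicates 1 to 4. This goes against the 1 donor that the labels name, since replicates 1 and 2 differ in these genes from replicates 3 and 4. Each contrast below had the same direction in all 4 libraries, and therefore also in replicates 1 and 2 and in replicates 3 and 4. Within each of these pairs the labels do not say whether the libraries came from separate animals, so the spread there may be technical. No pair of libraries agreed within sampling noise (chi-square over degrees of freedom 3.34 to 4.54 on the autosomes). Separately made libraries of 1 animal can differ so too, so this does not show separate animals. Each library was counted as 1 sample.

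Promoter windows were taken from RefSeq (GRCm38.p6, the build mm10) for 5 of the 9 genes, Slc3a2, Slc38a2, Slc7a1, Slc7a6 and Slc7a11, each from 250 bases before to 50 after a start site. Those of the heavy chain Slc3a2 and of the light chains Slc7a6 (the first of its start sites) and Slc7a11 are shown. These 3 genes encode parts of the same kind of dimer, and Slc7a11 was at the detection floor while Slc3a2 and Slc7a6 passed 100 TPM. Capitals mark 2 motifs, searched on both strands. One is TGATGNAA (TTNCATCA on the other strand), the core that the stress factor ATF4 binds in amino acid response elements. The other is TGACNNNGC (GCNNNGTCA), the core of the antioxidant response element. The E-box CACGTG, which Myc binds, was searched too and is in none of the windows of the 5 genes. The Slc3a2 window lies inside the annotated gene, which spans 8706882 to 8723369. Its outermost annotated start, at 8723369, was not searched.
Slc7a11, chr3:50443564-50443863, minus strand: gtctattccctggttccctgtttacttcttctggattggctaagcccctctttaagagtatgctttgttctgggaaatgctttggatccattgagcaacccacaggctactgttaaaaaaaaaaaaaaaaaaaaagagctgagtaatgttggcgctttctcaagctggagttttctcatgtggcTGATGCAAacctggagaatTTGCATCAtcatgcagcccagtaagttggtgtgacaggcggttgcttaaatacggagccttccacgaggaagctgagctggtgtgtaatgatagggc
Slc7a6, chr8:106168604-106168903, plus strand: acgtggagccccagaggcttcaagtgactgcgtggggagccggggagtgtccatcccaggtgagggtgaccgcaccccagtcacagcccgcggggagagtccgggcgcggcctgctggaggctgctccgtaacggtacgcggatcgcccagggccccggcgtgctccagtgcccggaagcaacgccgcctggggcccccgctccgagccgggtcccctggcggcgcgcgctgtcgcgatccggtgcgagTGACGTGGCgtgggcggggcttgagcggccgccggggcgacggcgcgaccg
Slc3a2, chr19:8713848-8714147, minus strand: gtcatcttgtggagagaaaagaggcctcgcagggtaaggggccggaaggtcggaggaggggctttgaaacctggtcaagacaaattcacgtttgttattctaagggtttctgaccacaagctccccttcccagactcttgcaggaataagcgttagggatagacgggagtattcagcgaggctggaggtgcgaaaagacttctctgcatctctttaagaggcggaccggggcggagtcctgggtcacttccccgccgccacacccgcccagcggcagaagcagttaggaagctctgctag

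The Slc7a11 window holds TGATGNAA at 2 places, 66 and 47 bases before the start site and on opposite strands. Of all 32851 promoter windows of the same length, 3.97% hold this motif. The 5 genes have 7 windows in all. The antioxidant core is in the Slc38a2 window and in the first Slc7a1 window, but not in the second. It is also in both Slc7a6 windows, which overlap and share the same site. Of all windows, 12.4% hold this core and 7.15% hold the E-box. Enrichment was not tested. The Slc7a11 window had a GC content of 44.7%, against 75.7% for that of Slc7a6 and 56% for that of Slc3a2. These are matches of letters, and binding was not measured here.

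Levels are given as TPM, the count over a gene's summed exon length scaled to 1000000 per library. Of the 9 genes, 8 reached 1 TPM in every library, as did 22.1% of all genes, 44.8% of protein-coding genes and 42.7% of the 379 protein-coding solute carrier genes. At 10 TPM or more in every library were 7 of the 9 genes, beside 15.3% of all genes, 33.9% of protein-coding genes and 30.1% of solute carrier genes. At 100 TPM or more it was again 7 of 9, beside 3.84% of all genes, 8.72% of protein-coding genes and 5.54% of solute carrier genes. The median of the 9 means was 183 TPM, and that of all protein-coding genes was 0.275 TPM. The genes were picked for their role in T cells with levels known, so these shares describe them and test nothing. In RNA from many cells, fewer cells that express a gene and less RNA per cell cannot be told apart.

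**Figure D1:**
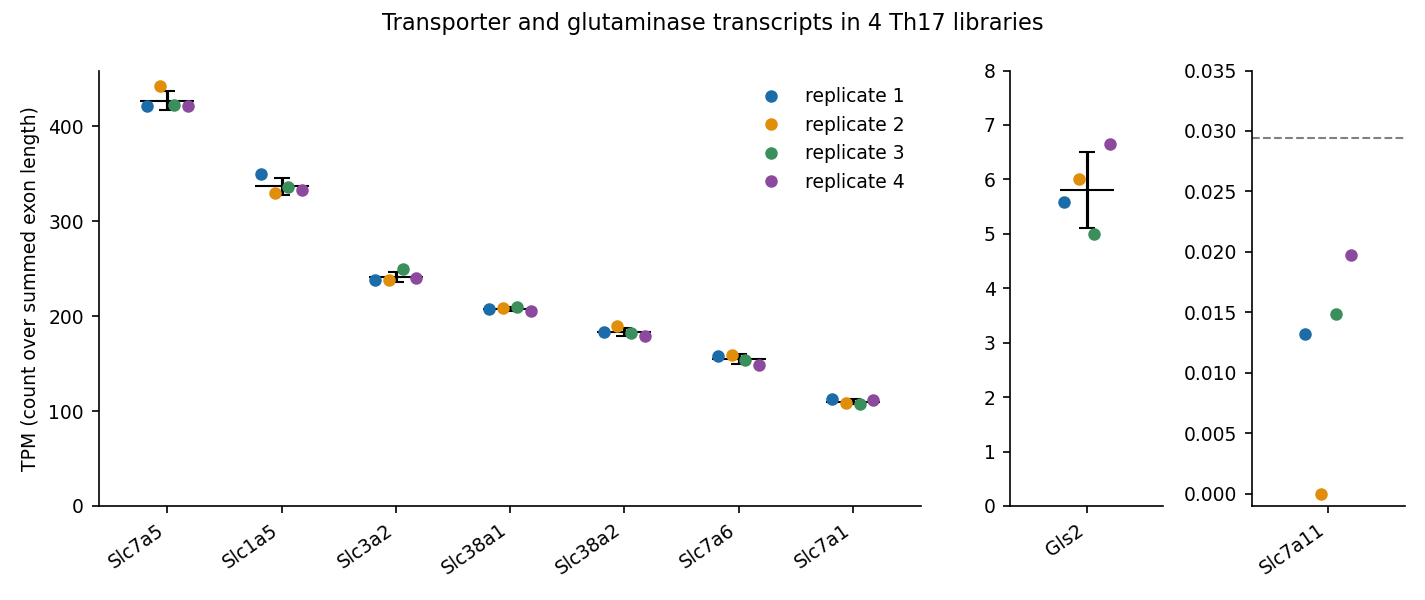
TPM of each gene (vertical axes, 1 scale per panel) in the 4 libraries (coloured points), with the mean and SD (bars) except for Slc7a11. Slc7a5 sits highest at 422 to 442 TPM, Gls2 lies between 5.00 and 6.65 TPM, and every Slc7a11 value is under the dashed line, the 0.0294 TPM that 3 fragments give in the shallowest library.

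The light chain Slc7a5 (LAT1, ENSMUSG00000040010.10, chromosome 8, 121881150 to 121907694, minus strand, mm10) carries leucine and other large neutral amino acids. It was at 422, 442, 422 and 422 TPM in replicates 1 to 4, a mean of 427 ± 10.2 TPM (SD over n = 4 libraries, which ± denotes throughout). Replicate 2 was the highest and the other libraries lay within 1 TPM of each other. Slc7a5 had the highest mean of the 9 genes, ranked 350 among 21764 protein-coding genes, and was the second of all solute carrier genes behind the mitochondrial nucleotide carrier Slc25a5 at 1746 TPM.

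The other abundant light chain was Slc7a6 (y+LAT2, ENSMUSG00000031904.5, chromosome 8, 106168857 to 106198706, plus strand), which exchanges cationic against neutral amino acids. It was at 158, 159.5, 154 and 148 TPM in replicates 1 to 4, a mean of 155 ± 5.20 TPM. Replicates 1 and 2 were the higher ones and replicate 4 the lowest. Within libraries Slc7a5 exceeded Slc7a6 by 1.46 ± 0.04 on the log2 scale, which is 2.75-fold, in 4 of 4 libraries (two-sided exact permutation test by sign flips, p = 0.13). With 4 libraries this exact test cannot give a smaller p, so none of these contrasts can pass 0.05. All 12 contrasts computed gave the same exact p of 0.13, also after Benjamini-Hochberg adjustment over them. Such p-values record only that the sign agreed in all 4 of these libraries. They do not measure how far the ratios spread.

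The light chain Slc7a11 (xCT, ENSMUSG00000027737.10, chromosome 3, 49892526 to 50443614, minus strand), which brings in cystine in exchange for glutamate, was at or near 0. Its exons took 2, 0, 2 and 3 fragments in replicates 1 to 4, or 7 in all, which is 0.0132, 0, 0.0149 and 0.0198 TPM. The floor of 3 fragments is 0.0294 TPM in the shallowest library, replicate 2. Replicates 1 to 3 were under 3 fragments and replicate 4 was at 3, so Slc7a11 was not detectable above the floor at this depth. Such floors cover counting error only. The mRNA of Atf4, a factor that drives genes of amino acid shortage, was at 924 ± 24.3 TPM. Other known targets of Atf4 spanned a wide range of levels. Psat1 was at 226 ± 5.59 TPM, the mTORC1 inhibitors Ddit4 and Sesn2 at 112 ± 8.52 and 80.3 ± 4.52 TPM, the asparagine synthetase Asns at 15.2 ± 2.07 TPM and Chac1, which degrades glutathione, at 0.709 ± 0.386 TPM.

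The other light chains that pair with Slc3a2 were low as well. Slc7a7 (y+LAT1) was at 0.767 ± 0.210 TPM and Slc7a8 (LAT2) at 0.164 ± 0.121 TPM. No fragment was counted for Slc7a10, a carrier of small neutral amino acids. For it, 3 fragments in replicate 2 would be 0.194 TPM. Slc7a5 made up 73.2% ± 0.547 and Slc7a6 26.6% ± 0.547 of the summed TPM of the 6 light chains.

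The heavy chain Slc3a2 (CD98 heavy chain, ENSMUSG00000010095.13, chromosome 19, 8706882 to 8723369, minus strand) has no transport activity of its own. It was at 238, 238, 249 and 240.0 TPM in replicates 1 to 4, a mean of 241 ± 5.47 TPM. Replicate 3 was the highest and the other libraries differed by less than 3 TPM. Slc3a2 was lower than the sum of its light chains, which was 583 ± 13.5 TPM. The difference was -1.27 ± 0.05 on the log2 scale, a ratio of 0.414, in 4 of 4 libraries (two-sided exact permutation test by sign flips, p = 0.13). With the longest annotated transcript the difference was -1.08, and with no length -1.43. The ratio is of transcripts per exon length, and protein was not measured.

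**Figure D2:**
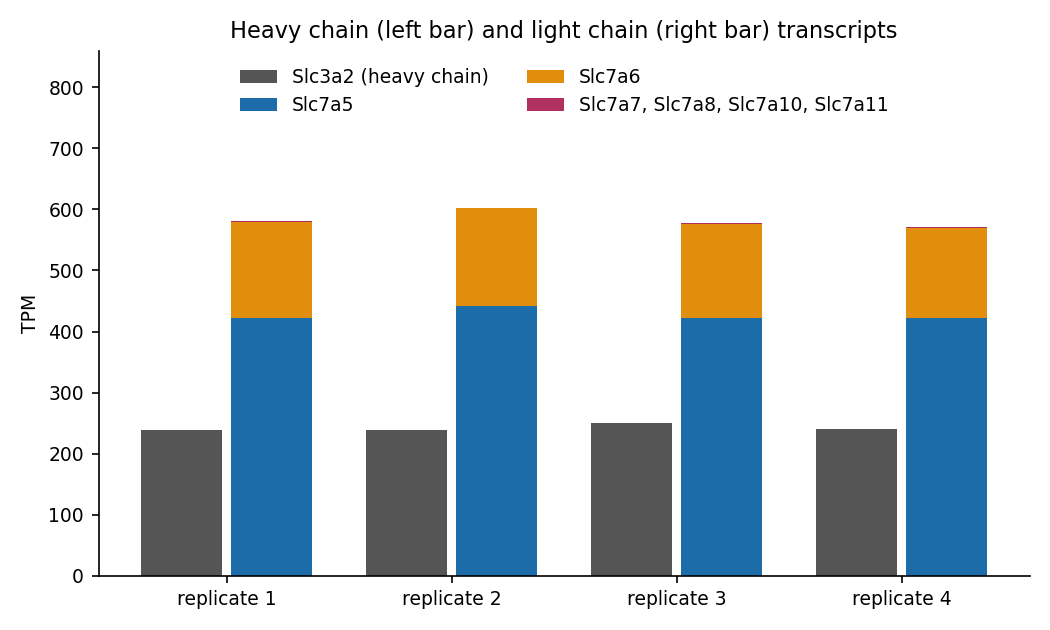
TPM (vertical axis) of the heavy chain Slc3a2 (left bar) and of its light chains stacked (right bar) in each of the 4 libraries. The left bars reach 238 to 249 TPM and the right bars 571 to 602 TPM, nearly all of it Slc7a5 and Slc7a6, since the last 4 light chains are too thin to see.

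Among the glutamine carriers, Slc1a5 (ASCT2, ENSMUSG00000001918.17, chromosome 7, 16781340 to 16798274, plus strand), an exchanger of small neutral amino acids, was the highest. It was at 349.7, 329.8, 336 and 333 TPM in replicates 1 to 4, a mean of 337 ± 8.88 TPM. Replicate 1 was the highest and the other libraries lay close together. Its nearest relative Slc1a4 (ASCT1) was at 29.0 ± 1.13 TPM, and Slc1a5 exceeded it by 3.54 ± 0.06 on the log2 scale, 11.6-fold, in 4 of 4 libraries (two-sided exact permutation test by sign flips, p = 0.13). With the longest annotated transcript this difference was 4.11, and with no length 3.62.

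The sodium-coupled carriers Slc38a1 (SNAT1, ENSMUSG00000023169.14, minus strand, 96571418 to 96642913) and Slc38a2 (SNAT2, ENSMUSG00000022462.6, minus strand, 96687394 to 96699698) lie beside each other on chromosome 15. Slc38a1 was at 207, 208, 209.7 and 205 TPM in replicates 1 to 4, a mean of 208 ± 1.83 TPM, with a coefficient of variation of 0.881%, the lowest of the 9 genes. Slc38a2, whose mRNA is known to rise when amino acids run short, was at 183, 189.6, 182 and 179 TPM, a mean of 183 ± 4.51 TPM, with replicate 2 the highest. The ranges of this pair did not overlap. Slc38a2 was lower than Slc38a1 by -0.18 ± 0.03 on the log2 scale in 4 of 4 libraries, and Slc1a5 exceeded Slc38a2 by 0.88 ± 0.06, 1.84-fold, in 4 of 4 (two-sided exact permutation test by sign flips, p = 0.13 each). The sizes depend on length. With the longest annotated transcript these differences were -0.79 and 1.85, and with no length they were -1.04 and 0.73.

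The arginine and lysine carrier Slc7a1 (CAT1, ENSMUSG00000041313.14, chromosome 5, 148327410 to 148399904, minus strand) works without a heavy chain. It was at 113, 108, 108 and 111 TPM in replicates 1 to 4, a mean of 110.0 ± 2.50 TPM. Replicates 1 and 4 were the higher ones. Slc7a1 was lower than Slc7a6, which also carries arginine, by -0.50 ± 0.06 on the log2 scale in 4 of 4 libraries (two-sided exact permutation test by sign flips, p = 0.13). Without length, as counts scaled to 1000000 per library, the direction turned, to 0.84 ± 0.06.

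Gls2 (ENSMUSG00000044005.13, chromosome 10, 128194457 to 128210004, plus strand), the glutaminase best known from liver and as a p53 target, was low but counted in every library. Its exons took 211, 153, 168 and 252 fragments, which is 5.58, 6.01, 5.00 and 6.65 TPM in replicates 1 to 4, a mean of 5.81 ± 0.696 TPM. Replicate 4 was the highest and replicate 3 the lowest. Glul, which makes glutamine from glutamate, was at 73.8 ± 0.864 TPM.

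By mean TPM the genes ran Slc7a5, Slc1a5, Slc3a2, Slc38a1, Slc38a2, Slc7a6, Slc7a1, Gls2 and Slc7a11. The ranges over the 4 libraries did not overlap between any neighbours in this order. The steps were 0.34 ± 0.06 from Slc7a5 over Slc1a5, 0.48 ± 0.05 from Slc1a5 over Slc3a2, 0.22 ± 0.03 from Slc3a2 over Slc38a1 and 0.24 ± 0.03 from Slc38a2 over Slc7a6, on the log2 scale. Slc7a1 exceeded Gls2 by 4.25 ± 0.16, or by 5.98 with no length. The order depends on the length that counts are divided by. With each gene's longest annotated transcript, Slc1a5 at 396 ± 10.5 TPM stood above Slc7a5 at 356 ± 8.44 TPM, and Slc38a2 fell to the seventh place at 109.7 ± 2.69 TPM. For Slc38a2 this transcript, of 6116 bases, is longer than the 4626 bases of exon over which fragments were counted, which lowers the value. Slc7a1 has 11530 bases of summed exons and a longest transcript of 7179 bases, and was at 139.7 ± 3.17 TPM with that length. As counts scaled to 1000000 per library, with no length, Slc38a1 led at 515 ± 4.39 and Slc3a2 and Slc38a2 overlapped, at 252 ± 5.60 and 251 ± 6.51.

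**Figure D3:**
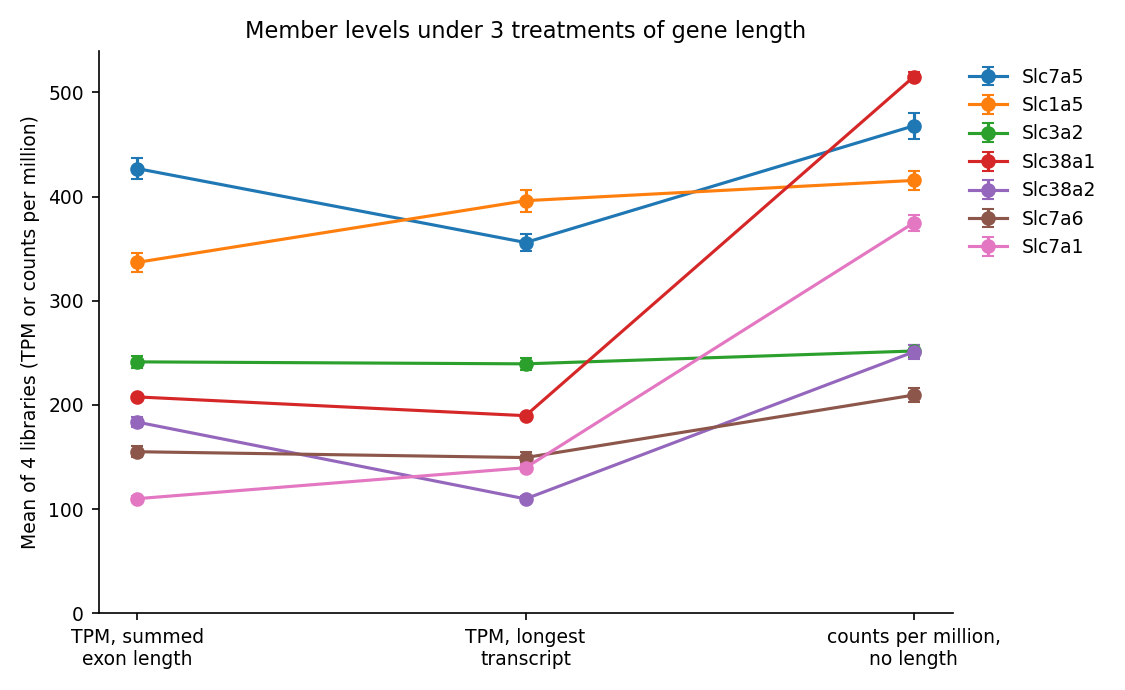
Mean level of the 7 abundant genes over 4 libraries (vertical axis, TPM or counts per 1000000, bars are SD) with 3 ways of treating gene length (horizontal axis). Slc7a5 and Slc1a5 change places with the longest transcript, and Slc38a1 moves to the top at 515 counts per 1000000 when length is not used.

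Of the 8 genes that passed the filter on low counts, 0 stood out in spread from genes of similar level (one-sided test on edgeR quasi-dispersions, Benjamini-Hochberg adjusted p under 0.05), where 0.304% of the 11847 genes tested did. At an unadjusted p under 0.05 it was also 0 of 8, with 5.69% of all genes tested. With limma it was 0 by both limits. Slc7a11 was not tested. Gls2 had the lowest unadjusted p of the members, 0.257 (adjusted p = 0.993, edgeR), with an SD of 0.18 in log2 counts per 1000000, and Slc7a6 followed at 0.291. A p that misses the threshold does not show that the libraries were alike. The median SD of the 8 genes was 0.04 on that scale, and that of all tested genes 0.07, although the spread of a gene's counts depends on its abundance.

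Counting error alone would give a coefficient of variation of 0.779% for Slc38a1, and 0.881% was observed. For Slc7a5 these were 0.817% and 2.38%, for Slc7a6 1.22% and 3.35%, and for Gls2 7.28% and 11.98%. The highest library exceeded the lowest by 1.02 times for Slc38a1, by 1.05 times for Slc7a5 and by 1.33 times for Gls2. No library was the highest for all members. Replicate 2 was highest for Slc7a5, Slc38a2 and Slc7a6, replicate 3 for Slc3a2 and Slc38a1, replicate 1 for Slc1a5 and Slc7a1, and replicate 4 for Gls2.

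**Figure D4:**
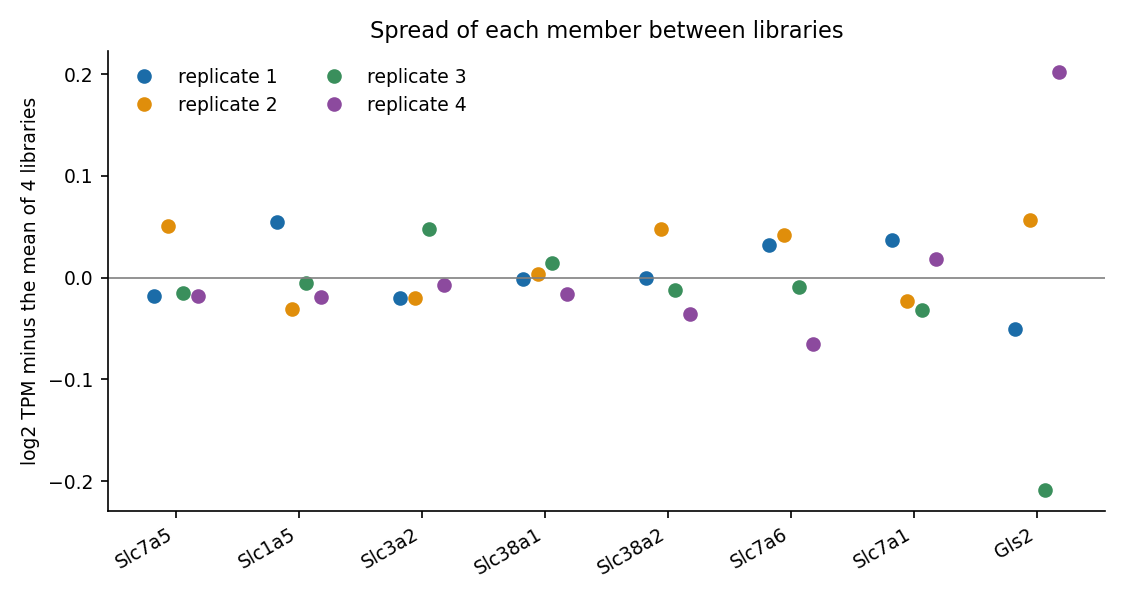
Difference of each library's log2 TPM from the mean of the 4 libraries (vertical axis) for the 8 genes with fragments in every library (horizontal axis, coloured points are libraries). The 7 abundant transporters stay near 0, and Gls2 spreads most, with replicate 4 the highest and replicate 3 the lowest.

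Other carriers of the cell membrane were mostly low. The members, picked with levels known, are not on this list, so setting it beside them tests nothing. Of 32 further genes for amino acid carriers of that membrane, 5 were at 1 TPM and 4 at 10 TPM or more in every library, beside 42.7% and 30.1% of solute carrier genes, and 17 had no fragment. The highest were the taurine carrier Slc6a6 at 106 ± 2.15 TPM, the aromatic amino acid carrier Slc16a10 at 60.5 ± 2.82 TPM, Slc1a4 and the leucine carrier Slc43a2 at 27.6 ± 1.54 TPM. The lowest with at least 3 fragments in every library was Slc7a7. Slc6a6 was the nearest solute carrier gene to Slc7a1 in level, with a distance of 0.111 in log2 TPM over the 4 libraries, among 171 such genes compared. For Slc1a5 and for Slc7a5 the nearest was the mitochondrial phosphate carrier Slc25a3, at 351 ± 12.5 TPM and a distance of 0.155 and 0.572. For Slc3a2 it was Slc35a4 (0.127), for Slc38a1 the peroxisomal carrier Slc25a17 (0.1005), for Slc38a2 the mitochondrial carrier Slc25a39 (0.167), for Slc7a6 the folate carrier Slc19a1 (0.162) and for Gls2 Slc35a5 (0.306).

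Carriers inside the cell and the enzymes that use glutamine were more widely present. Of 18 matched genes for amino acid carriers of organelles, 15 reached 1 TPM and 1 reached 100 TPM in every library, beside 44.8% and 8.72% of protein-coding genes. They were led by the mitochondrial serine carrier Sfxn1 at 275 ± 2.69 TPM, the glutamate carrier Slc25a22 at 55.9 ± 0.814 TPM, Slc25a44, a carrier of branched-chain amino acids, at 48.1 ± 0.828 TPM, and the glycine carrier Slc25a38 at 47.3 ± 1.13 TPM. The lowest with at least 3 fragments in every library was Slc25a29 at 3.92 ± 0.694 TPM. Of 30 genes for enzymes of glutamine and glutamate, 27 were at 1 TPM and 13 at 100 TPM or more, beside the same 44.8% and 8.72%. The highest were Ctps, which makes CTP, at 353 ± 5.26 TPM, Cad, which starts pyrimidine synthesis, at 321 ± 2.61 TPM, the aspartate transaminase Got1 at 255 ± 5.34 TPM and Psat1, of serine synthesis, at 226 ± 5.59 TPM. The lowest with at least 3 fragments in every library was Gfpt2, of hexosamine synthesis, at 1.31 ± 0.282 TPM.

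Of 26 genes that sense amino acids or answer their shortage, 24 reached 1 TPM and 5 reached 100 TPM in every library, again beside 44.8% and 8.72% of protein-coding genes. Myc, a factor known to raise transporter genes in activated T cells, was at 972 ± 13.4 TPM, followed by Atf4. The leucyl-tRNA synthetase Lars was at 233 ± 3.63 TPM and Rraga, a GTPase that recruits mTORC1 to lysosomes, at 168 ± 8.43 TPM. Chac1 was the lowest with at least 3 fragments in every library. In the variability test, 0 of 8 tested genes of the membrane list, 0 of 15 of the organelle list, 0 of 28 of the enzyme list and 0 of 24 of the sensing list were called (edgeR, adjusted p under 0.05). At an unadjusted p under 0.05 these counts were 0, 1, 2 and 2, where 5.69% of all genes tested passed.

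**Figure D5:**
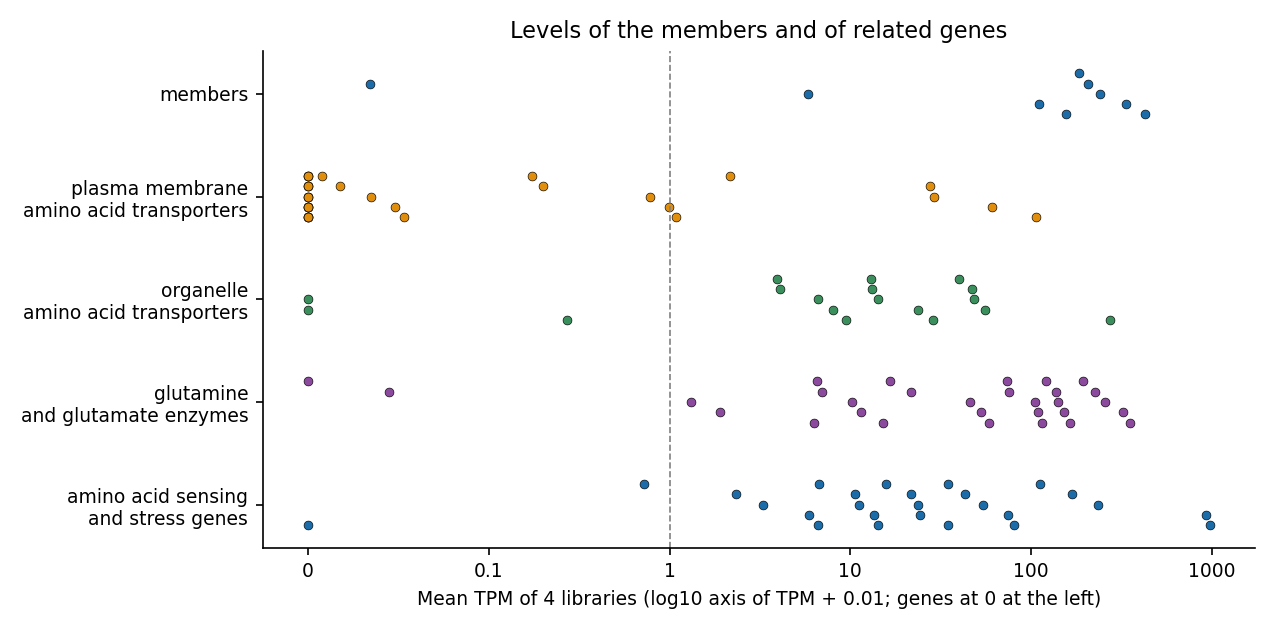
Mean TPM over 4 libraries (horizontal axis, logarithm of TPM + 0.01, genes at 0 at the left edge and partly on top of each other) of the 9 members and of 4 lists of related genes (rows), with a dashed line at 1 TPM. Of the 9 members 7 lie above 100 TPM, while most other carriers of the cell membrane lie left of the line. The members were picked with levels known and are not on that list, so this difference tests nothing.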

How the data were processed

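Whole-number fragment counts per gene were deposited for 4 libraries. Per the file headers, the authors counted fragments over GENCODE M13 exons with featureCounts 1.4.6-p4, with both ends aligned and strand option 2. The build is mm10 per the labels. No source used here gives the version of the aligner. The assay is given as total RNA-seq, while the linked library protocol is named for polyA RNA. The output names carry a tag of 16 hr that the labels do not explain. With strand-specific counting, fragments of the opposite strand are kept apart, so the 97 exon bases that Gls2 shares with Spryd4 on the opposite strand do not mix. Up to 4.23% of a member's 50-base words (Slc38a1) occur in transcripts of other genes, and fragments from these may be lost.

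TPM was computed as count over the deposited summed exon length. Symbols came from GENCODE M21 (50376 of 50600 genes), and Slc66a1 on the lists had no match. Genes within libraries were compared by log2 ratios of TPM with an exact sign-flip test. Variability was tested across all genes with edgeR 4.0.16 in R 4.3.3 (TMM, filterByExpr, intercept only, robust prior, residual quasi-dispersion over the trended prior against the F distribution with 24.8 prior degrees of freedom) and checked on simulated data. That number is the largest prior value over genes. Alternatives used DESeq2 1.42.0 size factors and limma 3.58.1. A floor of 3 fragments was used. Other work used Python 3.11.15.

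The members, lists and tests were chosen with earlier results of these data known. Named genes were all members, the genes of the contrasts, the nearest solute carrier gene to each member, and of each list the 4 highest and the lowest with 3 fragments in every library. Asns, Ddit4, Sesn2, Glul and Slc25a5 were named after their values were seen. Of the 12 contrasts, 1 is not reported here.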

Additional observations from a re-analysis of the deposited data

Results flagged for a closer look

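The level of Slc7a5 in replicate 2, 442 TPM, stood apart from the other 3 libraries, which lay at 422 TPM each. The gap was 0.96 of the whole range, above Dixon's 95% critical value for 4 samples. Of 21 values tested in this way, 1 was marked, and chance marks about 1 in 20. Replicate 2 was also the shallowest library, at 24696730 fragments. The part of depth in this value was not tested.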

How the results depend on the processing

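The count of 8 members at 1 TPM was the same under every alternative run (longest transcript, rescaling, 10 fragments, each replicate left out, and replicates 1 and 2 or 3 and 4 alone, the last added after seeing the data). No member was called as variable under any alternative (adjusted p 0.928 to 0.999). Of 108 values of the 12 contrasts under alternatives, 104 kept their direction and 4 turned. Only the changes of length could turn a sign. Adding 1 to the TPM or leaving out libraries could not, since all 4 libraries had the same sign in every contrast. With the longest transcript, Slc7a5 over Slc1a5 was -0.15 and Slc38a2 over Slc7a6 was -0.45. As counts per 1000000, Slc7a1 over Slc7a6 was 0.84 and Slc3a2 over Slc38a1 was -1.03. These turned because the divisor differs. The count of variable genes among all tested was 36, against 94 with no filter and 17 without the robust prior, and 15 to 37 with a replicate left out. Replicate 4 gave the 15, and 0 members were among them. No paired analysis was possible because there is 1 group. Depth limits Slc7a11, at 7 fragments, and Gls2, at 784.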

Other observations

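Among the 4 lists of amino acid genes, 5 genes had an unadjusted p under 0.05 for spread between libraries (edgeR), none of them with an adjusted p under 0.05, and they are named after their values were seen. Sfxn3, a mitochondrial carrier of the sideroflexin family, had the lowest of these, 0.00882 (adjusted p = 0.521). Asns was at 14.7, 15.4, 12.8 and 17.8 TPM in replicates 1 to 4 (unadjusted p = 0.0267, adjusted p = 0.763, edgeR). Its highest library was replicate 4 and its lowest replicate 3, as for Gls2. The others were Ctps2, highest in replicate 2, Ddit4, highest in replicate 3, and Sesn3, highest in replicate 1 as Sfxn3 was. The highest library thus differed between these genes, and with 4 libraries no correlation is given. Among the cell type markers, Il17f was called as variable (adjusted p = 0.00785, edgeR), at 703, 724, 589 and 759 TPM in replicates 1 to 4. Cd4 was lowest in replicate 2 and Foxp3 was highest there. A shared order of libraries was not tested. Cd4 and Foxp3 had unadjusted p of 0.00691 and 0.0270 (adjusted p = 0.490 and 0.765, edgeR).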
